A study of Mus musculus with 2 samples.

Results

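The set described here holds 37 genes for the enzymes and carriers of glycolysis, pyruvate use and the pentose phosphate pathway, chosen by symbol, out of 43346 genes listed for CH12.LX. CH12.LX is an immortalized mouse B-cell lymphoma line of strain B10.H-2aH-4bp/Wts, labelled female, with no treatment named. Total RNA was sequenced in 2 libraries, named biological replicates 2 and 1 by the labels, each with its own biosample record; both belong to the only group. The line has no other group beside it, so the levels of the genes are described and replicate 2 is set against replicate 1. With 1 library on each side no difference has a replicate check and no test was run.

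Glycolysis turns glucose that enters through membrane carriers into pyruvate, in an upper part that spends ATP to make triose phosphates and a lower part that earns ATP and NADH. Pyruvate is then either reduced to lactate and exported or passed into mitochondria. There the pyruvate dehydrogenase complex, which the pyruvate dehydrogenase kinases switch off, makes acetyl groups from it. The pentose phosphate pathway branches from glucose 6-phosphate and makes NADPH and ribose for nucleotides; proliferating lymphoid cells are known to run both routes at a high rate.

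Expected counts summed to 55950529 in replicate 2, against 49278383 in replicate 1, where an expected count is an estimate of the reads that came from a gene. Levels are given as TPM, a share of all transcripts that is divided by length, so that genes can be set side by side. Protein-coding genes made up 24.3% of TPM in replicate 2 and 24.4% in replicate 1, so a TPM value here is smaller than it would be with noncoding RNAs left out. Markers of the labelled lineage were present: 8 of 8 B cell genes reached 1 TPM in both libraries, with Cd74 at 516 TPM in replicate 2, against 496 TPM in replicate 1. Ebf1 was the one B cell gene past 1.5-fold, at 9.44 TPM in replicate 2, against 6.18 TPM in replicate 1. The summed levels of other marker lists were low, at 0.34 and 0.35 TPM for 6 myeloid genes, 2.47 and 1.23 TPM for 6 erythroid genes, 1.49 and 1.47 TPM for 6 skeletal muscle genes, and 1.1 and 1.03 TPM for 6 neuronal genes in replicates 2 and 1. Most of the erythroid sum was Hba-a1 and Hba-a2. The 6 T cell markers summed to 4.59 TPM in replicate 2, against 3.91 TPM in replicate 1, from Cd3g and Cd3d, with the other 4 under 1 TPM. The 6 fibroblast and endothelial markers summed to 5.39 and 4.69 TPM in replicates 2 and 1, mostly Pecam1. Their part in the differences between the libraries was not tested.

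Most of the set was expressed. At 1 TPM or more in both libraries, 32 of the 37 genes were detected, against 22.1% of all genes listed and 41.4% of protein-coding genes. Much of the main route was carried by abundant transcripts: 8 genes, Gapdh, Pkm, Aldoa, Eno1, Tpi1, Pgk1, Ldha and Pgam1, were each at 100 TPM or more in both libraries, and 19 of the 37 genes were at 10 TPM or more in both. The other 5 were not detected by this rule: Hk3, Ldhb, Pdk2 and Pdk4 were under 0.1 TPM in both libraries, and Pfkfb4 was at 1.09 TPM in replicate 2, against 0.87 TPM in replicate 1. The median over all 37 genes of the mean level was 14.04 TPM.

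**Figure D1:**
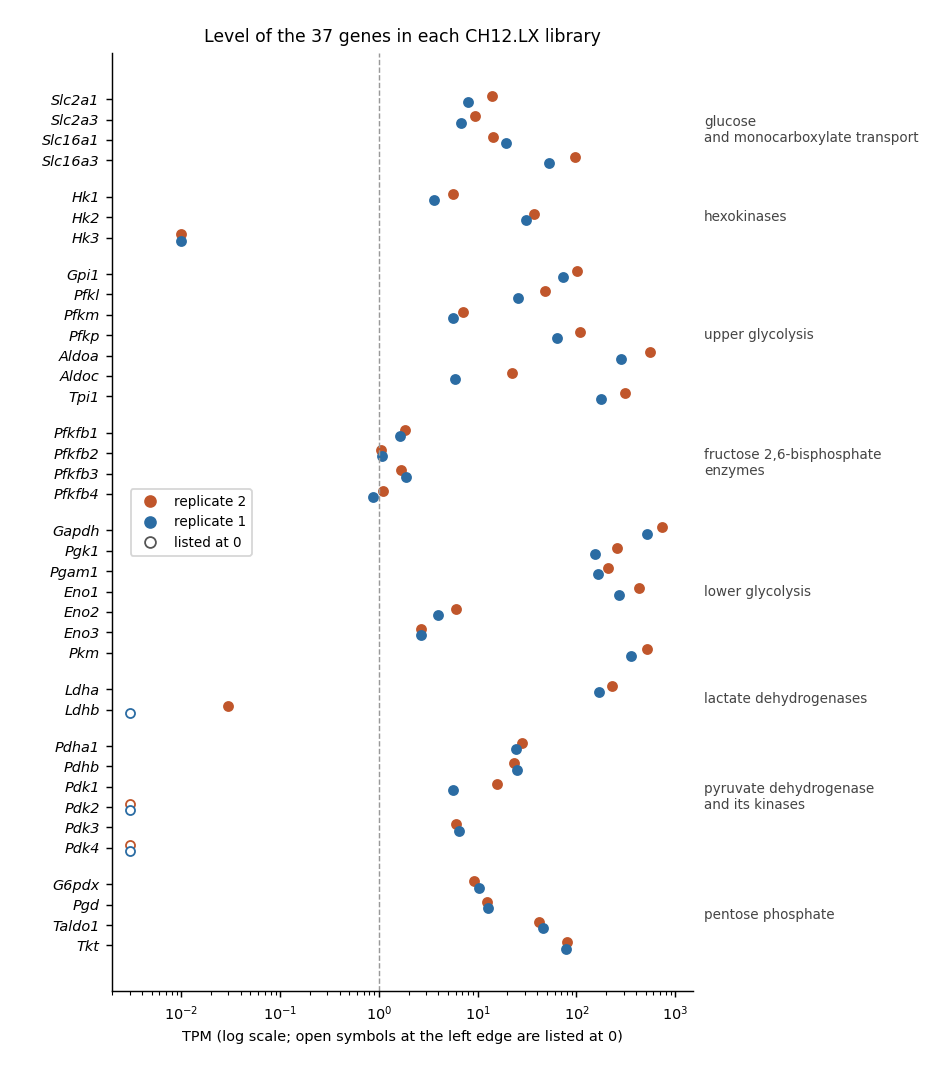
Level of each of the 37 genes in TPM on a log axis, 1 point per library, grouped by role; the dashed line marks 1 TPM and open symbols are values listed at 0. The enzymes of the main route sit to the right, the fructose 2,6-bisphosphate enzymes lie near 1 TPM, and Hk3, Ldhb, Pdk2 and Pdk4 lie under 0.1 TPM.

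The order of the most abundant genes was not the same in both libraries. Gapdh, the dehydrogenase that makes the NADH of glycolysis, was highest in both, at 736 TPM in replicate 2, against 520 TPM in replicate 1, and ranked 73 among protein-coding genes by mean level. Pkm and Aldoa came next, with Aldoa at 551 TPM above Pkm at 521 TPM in replicate 2, and Aldoa at 281 TPM below Pkm at 357 TPM in replicate 1. Pgk1, Ldha and Pgam1 stood in that order in replicate 2, at 257, 231 and 207 TPM, and in replicate 1 Pgk1 was the lowest of them, at 155 TPM beside 169 TPM for Ldha and 167 TPM for Pgam1. The difference between these neighbours was therefore within the spread between the libraries.

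Replicate 2 held more RNA of the glycolytic route than replicate 1, while the pentose phosphate genes of the set were within 1.5-fold between the libraries. Being within 1.5-fold was common: it held for 9115 of the 9851 genes that averaged 1 TPM or more, and for 20 of the 32 such genes of the set. Among the 32 genes that averaged 1 TPM or more, 12 were higher in replicate 2 by 1.5-fold or more in TMM-scaled counts, against 5.09% of the 9851 genes that passed this filter and 4.34% of the 9087 protein-coding ones. TMM scaling sets the bulk of genes to a ratio near 1. None of the 32 was lower in replicate 2 by 1.5-fold or more, against 2.39% of all genes. By 2-fold or more, 2 of the 32 were higher in replicate 2, Aldoc and Pdk1, against 1.22% of all genes. The median log2 ratio of replicate 2 over replicate 1 was 0.48 over the 32 genes and -0.03 over all genes, of which the 5th to 95th percentiles ran from -0.47 to 0.59. The deposited credibility bounds of TPM did not overlap for 24 of the genes, 21 with replicate 2 higher and 3 with replicate 2 lower, where bounds lay apart for 19.0% of all genes with replicate 2 higher and 29.6% with replicate 2 lower. The 37 genes together summed to 3940 TPM in replicate 2, against 2615 TPM in replicate 1, or 1.62% and 1.07% of the TPM of protein-coding genes. In bulk RNA, more cells with a transcript and more of it per cell cannot be told apart. Intervals given with the ratios are 95% intervals from the counts and cover counting error only; over all genes compared, the counts of the libraries differed by a chi-square of 267 per degree of freedom, far beyond counting error, so narrow intervals do not stand for the spread between cultures.

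**Figure D2:**
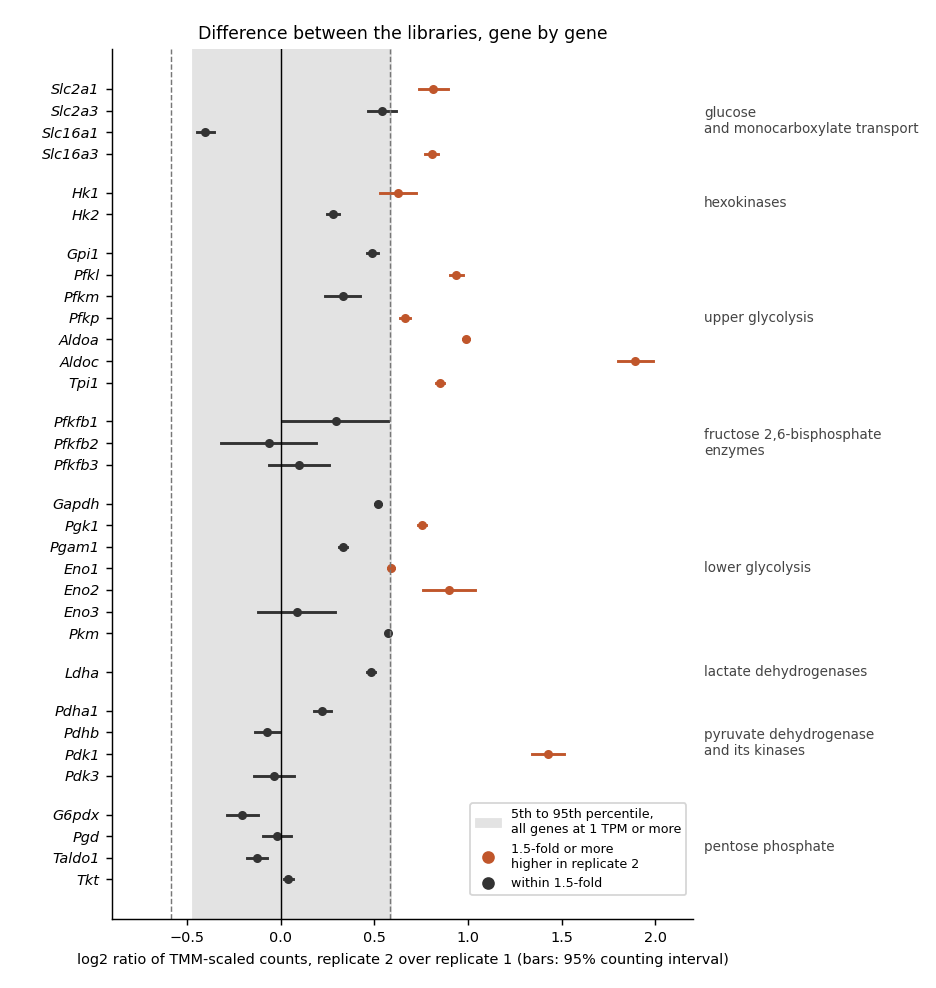
Log2 ratio of TMM-scaled counts, replicate 2 over replicate 1, for the 32 genes that averaged 1 TPM or more, with 95% counting intervals as bars; dashed lines mark 1.5-fold and the grey band holds the middle of all genes, from -0.47 to 0.59. The points of upper and lower glycolysis all lie right of 0 (in FPKM Eno3 would lie left of it), those of the pentose phosphate genes lie close to 0, and Aldoc and Pdk1 lie farthest right.

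The carriers differed in direction. Slc2a1, the glucose carrier GLUT1, was at 13.9 TPM in replicate 2, against 8.05 TPM in replicate 1, a ratio of scaled counts of 1.76 (counting interval 1.67 to 1.85). Slc2a3, the carrier GLUT3, was at 9.32 TPM in replicate 2, against 6.79 TPM in replicate 1, a ratio of 1.45 that stayed under 1.5-fold. Both glucose carriers thus stood higher in replicate 2, and Slc2a1 made up 59.8% of their summed TPM in replicate 2 and 54.2% in replicate 1. By expected counts Slc2a1 led in replicate 2, with 4020 against 3702 for Slc2a3, but not in replicate 1, with 2135 against 2376. Slc16a3, the lactate exporter MCT4, was at 96.0 TPM in replicate 2, against 52.9 TPM in replicate 1, a ratio of 1.75 (1.71 to 1.79). Slc16a1, the monocarboxylate carrier MCT1 that moves lactate either way, was the exception at 14.4 TPM in replicate 2, against 19.4 TPM in replicate 1, a log2 ratio of -0.40 (-0.45 to -0.36). Slc16a3 held 87.0% of the summed TPM of these lactate carriers in replicate 2 and 73.2% in replicate 1. Bsg, the chaperone that brings both lactate carriers to the membrane, was at 101 TPM in replicate 2, against 75.1 TPM in replicate 1, within 1.5-fold.

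Glucose is trapped in the cell by hexokinases, and Hk2 was the main one. Hk2, which binds mitochondria and is known from tumour cells and muscle, was at 37.3 TPM in replicate 2, against 31.1 TPM in replicate 1, and made up 88.2% ± 1.91 (SD, n = 2) of the hexokinase TPM. Of the Hk2 level, 34.95% in replicate 2 and 33.8% in replicate 1 was assigned to Hk2-202, a processed transcript of 594 bases, which took only 4.20% and 4.09% of the Hk2 counts. Hk1, the hexokinase of most tissues, was at 5.63 TPM in replicate 2, against 3.61 TPM in replicate 1, a ratio of 1.54 (1.44 to 1.65). That call rests on the scale: the log2 ratio of Hk1 was 0.62, but 0.54 with library totals, 0.55 in posterior mean TPM and 0.58 in FPKM, each under the 1.5-fold line. Hk3, a hexokinase of myeloid cells, was listed at 0.01 TPM in both libraries, from 3 counts in replicate 2 and 4 counts in replicate 1.

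Hk1 was read from 3 protein-coding transcripts that start at different first exons on the minus strand of chromosome 10. Hk1-202, with its first exon at chr10:62340013-62340542 (mm10, annotation M21), held 54.4% of Hk1 TPM in replicate 2 and 64.4% in replicate 1. Hk1-205, with its first exon at chr10:62342501-62342722, held 23.3% in replicate 2 and 26.9% in replicate 1. Hk1-201, with its first exon at chr10:62358336-62358362, held 17.8% in replicate 2 and 6.55% in replicate 1, or 421 expected counts in replicate 2 and 91 in replicate 1. Hk1-201 was the transcript whose share differed most between the libraries, at 1.00 TPM in replicate 2, against 0.24 TPM in replicate 1, while Hk1-202 and Hk1-205 ranked in the same order in both.

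Upper glycolysis was higher in replicate 2 at each gene, under every scaling tried. All 7 genes had a ratio above 1, against 4568 of the 9851 genes compared, and 5 reached 1.5-fold, against 5.09% of all genes. Their median log2 ratio was 0.85. The credibility bounds of all 7 lay apart with replicate 2 higher, against 19.0% of all genes. Gpi1, the isomerase that makes fructose 6-phosphate, was at 101 TPM in replicate 2, against 73.6 TPM in replicate 1, a ratio of 1.40. Tpi1, which interconverts the triose phosphates, was at 314 TPM in replicate 2, against 176 TPM in replicate 1, a ratio of 1.80 (1.78 to 1.83).

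Phosphofructokinase, which commits sugar to glycolysis, came from all 3 isozyme genes. Pfkp, the platelet form, was at 109 TPM in replicate 2, against 63.0 TPM in replicate 1, a ratio of 1.58 (1.55 to 1.61). Pfkl, the liver form, was at 47.6 TPM in replicate 2, against 25.6 TPM in replicate 1, a ratio of 1.91 (1.87 to 1.96). Pfkm, the muscle form, was at 7.02 TPM in replicate 2, against 5.67 TPM in replicate 1, a ratio of 1.26. The share of Pfkp in the family was nearly the same in both libraries, at 66.7% in replicate 2 and 66.9% in replicate 1, with 29.0% and 27.1% from Pfkl. Exons of Pfkp overlap 748 bases of the opposite-strand gene Pitrm1, at 10.01 TPM in replicate 2, against 12.9 TPM in replicate 1; with all Pitrm1 counts added to Pfkp its ratio was 1.41, under 1.5-fold. No source used here says whether the counting used strand.

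The aldolases, which split fructose 1,6-bisphosphate, held the widest differences of the glycolytic route. Aldoa, the form of muscle and most other cells, was at 551 TPM in replicate 2, against 281 TPM in replicate 1, a ratio of 1.99 (1.96 to 2.01). Aldoc, the form known from brain, was at 22.2 TPM in replicate 2, against 5.90 TPM in replicate 1, from 4752 and 1194 expected counts. Its ratio of 3.72 (3.49 to 3.96) ranked 11 among the 9851 genes compared. Aldoa nonetheless supplied 96.1% of aldolase TPM in replicate 2 and 97.9% in replicate 1, and Aldoa-201 alone held 92.1% of Aldoa TPM in replicate 2 and 92.3% in replicate 1. The neuronal markers Snap25, Syt1, Rbfox3 and Stmn2 were under 1 TPM in both libraries, as were Tubb3 and Map2.

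Because Aldoc, Pdk1 and Aldoa had the widest ratios of the set, the 250 bases before their starts are shown, as listed in RefSeq for GRCm38.p6, 5′ to 3′ on the strand of the gene. Capitals mark matches to ACGTG or GCGTG on either strand, the core of the element that hypoxia-inducible factors bind.
Aldoc, chr11:78323948-78324197, plus strand: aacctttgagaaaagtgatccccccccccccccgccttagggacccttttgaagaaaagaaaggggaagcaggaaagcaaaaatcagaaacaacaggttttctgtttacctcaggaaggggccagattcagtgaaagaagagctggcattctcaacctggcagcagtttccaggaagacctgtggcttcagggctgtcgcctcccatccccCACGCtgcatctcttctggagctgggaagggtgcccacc
Pdk1, chr2:71872974-71873223, plus strand: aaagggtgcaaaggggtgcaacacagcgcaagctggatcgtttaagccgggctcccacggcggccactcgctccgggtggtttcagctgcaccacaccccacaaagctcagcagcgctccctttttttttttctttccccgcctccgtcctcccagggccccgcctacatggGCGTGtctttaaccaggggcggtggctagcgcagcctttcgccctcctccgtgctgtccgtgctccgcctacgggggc
Aldoa, chr7:126799255-126799504, minus strand: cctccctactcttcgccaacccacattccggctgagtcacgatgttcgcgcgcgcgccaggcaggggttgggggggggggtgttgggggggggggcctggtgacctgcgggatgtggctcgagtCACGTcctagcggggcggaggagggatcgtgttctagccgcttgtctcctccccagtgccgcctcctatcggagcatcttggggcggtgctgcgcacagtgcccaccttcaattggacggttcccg
Each of the 3 windows held 1 match, beginning 39 bases before the start in Aldoc, 78 in Pdk1 and 126 in Aldoa. The match in Aldoc is the reverse complement of GCGTG, and that in Aldoa the reverse complement of ACGTG. Windows were matched for 36 of the 37 genes, all but Slc2a3, and 31 of the 36 (86.1%) held at least 1 match. Of the 12 genes higher in replicate 2 by 1.5-fold or more, 10 held one (83.3%), and Eno2 and Tpi1 did not. Each window lies before the RefSeq start nearest to the start of the transcript with most counts. The distance between these starts was 1336 bases for Eno2, 138 for Tpi1 and 244 for Eno1, which held a match. Such short letters are common: 60.2% of 7238 protein-coding genes that averaged 1 TPM or more held a match in the same window. CACGTG, the E-box that MYC and its partners bind and that contains ACGTG, stood in 4 of the 36 windows (11.1%), those of Ldha, Pdk2, Pfkfb2 and Slc16a1, against 8.79% of the 7238. A match describes the letters only and shows no binding.

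The enzymes that make and remove fructose 2,6-bisphosphate, the strongest activator of phosphofructokinase, were all scarce. Pfkfb3 was at 1.68 TPM in replicate 2, against 1.88 TPM in replicate 1, Pfkfb1 at 1.85 and 1.63 TPM, and Pfkfb2 at 1.04 and 1.08 TPM. By TPM no single gene led this family: the shares ran from 18.4% for Pfkfb2 to 32.7% for Pfkfb1 in replicate 2, and from 15.9% for Pfkfb4 to 34.4% for Pfkfb3 in replicate 1. By expected counts Pfkfb3 was highest in both, with 682 in replicate 2 and 596 in replicate 1, followed by Pfkfb4 with 418 and 305. Transcripts not annotated as protein-coding held 56.1% and 52.9% of Pfkfb2 TPM in replicates 2 and 1. They held 24.7% and 35.1% for Pfkfb1, and 23.2% and 32.6% for Pfkfb3. None of the 3 genes compared reached 1.5-fold, as was so for 9115 of the 9851 genes compared. The log2 ratio of Pfkfb3 was 0.10 in counts (-0.06 to 0.26) but -0.15 in TPM, and that of Pfkfb2 was -0.07 (-0.32 to 0.19).

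Lower glycolysis was also mostly higher in replicate 2. All 7 genes had a ratio above 1 in scaled counts, against 4568 of the 9851 genes compared, though in FPKM Eno3 had a log2 ratio of -0.04. Of the 7, 3 reached 1.5-fold, against 5.09% of all genes, and the median log2 ratio was 0.57. Pgk1, the first enzyme of the route to make ATP, was at 257 TPM in replicate 2, against 155 TPM in replicate 1, a ratio of 1.69 (1.66 to 1.71). Pgam1, the mutase, was at 207 TPM in replicate 2, against 167 TPM in replicate 1, a ratio of 1.26. Gapdh had a ratio of 1.43 (1.42 to 1.45), just under the 1.5-fold line, as did Pkm with 1.486 (1.474 to 1.499). Reads of Gapdh, Pgk1, Pgam1 and Eno1 can be shared with near-identical copies, and with the counts of its copies added Gapdh had a ratio of 1.55.

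Enolase was almost all Eno1. Eno1, the form of most tissues, was at 429 TPM in replicate 2, against 272 TPM in replicate 1, and made up 97.8% ± 0.271 (SD, n = 2) of enolase TPM. Its ratio of 1.51 (1.49 to 1.52) lay on the 1.5-fold line and was 1.497 with DESeq2 size factors, just under it. Eno2, the neuronal form, was at 5.98 TPM in replicate 2, against 3.93 TPM in replicate 1, a ratio of 1.86 (1.69 to 2.05), but 63.4% of its TPM in replicate 2 and 59.6% in replicate 1 sat on transcripts not annotated as protein-coding, mainly retained introns. Its log2 ratio of 0.90 was 0.54 in posterior mean TPM and 0.55 in FPKM, both under the 1.5-fold line, and 1.23 with protein-coding transcripts only. Eno3, the muscle form, was at 2.69 TPM in replicate 2, against 2.66 TPM in replicate 1, a ratio of 1.06 whose interval of 0.92 to 1.22 spans 1.

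Pyruvate kinase makes the pyruvate and the last ATP of the route, and Pkm gives rise to PKM1 or PKM2 by use of 1 of a pair of mutually exclusive exons. Pkm was at 521 TPM in replicate 2, against 357 TPM in replicate 1. In annotation M21, where Pkm-202 is 2041 bases long and not 2432 as in the annotation of the levels, Pkm-201 and Pkm-202 have 11 exons each, of which 8 share their coordinates. They differ at exon 9 of each, shown here because that exon decides the isoform; capitals mark the bases at which the 2 exons, aligned end to end without gaps, differ (mm10, annotation M21, plus strand).
Pkm-201, chr9:59675568-59675734: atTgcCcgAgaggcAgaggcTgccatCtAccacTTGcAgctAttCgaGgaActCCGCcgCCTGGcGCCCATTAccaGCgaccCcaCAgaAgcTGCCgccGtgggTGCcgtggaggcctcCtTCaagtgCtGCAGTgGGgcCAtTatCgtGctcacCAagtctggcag
Pkm-202, chr9:59675029-59675195: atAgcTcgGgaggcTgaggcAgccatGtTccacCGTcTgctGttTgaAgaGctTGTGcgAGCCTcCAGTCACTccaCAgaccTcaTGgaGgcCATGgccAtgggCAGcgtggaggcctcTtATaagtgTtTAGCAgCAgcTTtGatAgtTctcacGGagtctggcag
Both exons are 167 bases long and differ at 64 of them, and the longest run of matching positions is 12 bases. The downstream exon, in Pkm-201, is that of PKM2, the form of proliferating cells, and the upstream exon, in Pkm-202, is that of PKM1, the form of muscle and brain. Pkm-201 was at 483 TPM in replicate 2, against 330 TPM in replicate 1, and Pkm-202 at 38.03 TPM in replicate 2, against 27.6 TPM in replicate 1. The PKM2 transcript held 92.7% of Pkm in replicate 2 and 92.3% in replicate 1, close in both libraries while total Pkm was higher in replicate 2. In expected counts the PKM1 transcript had 10408 in replicate 2 and 6930 in replicate 1.

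**Figure D3:**
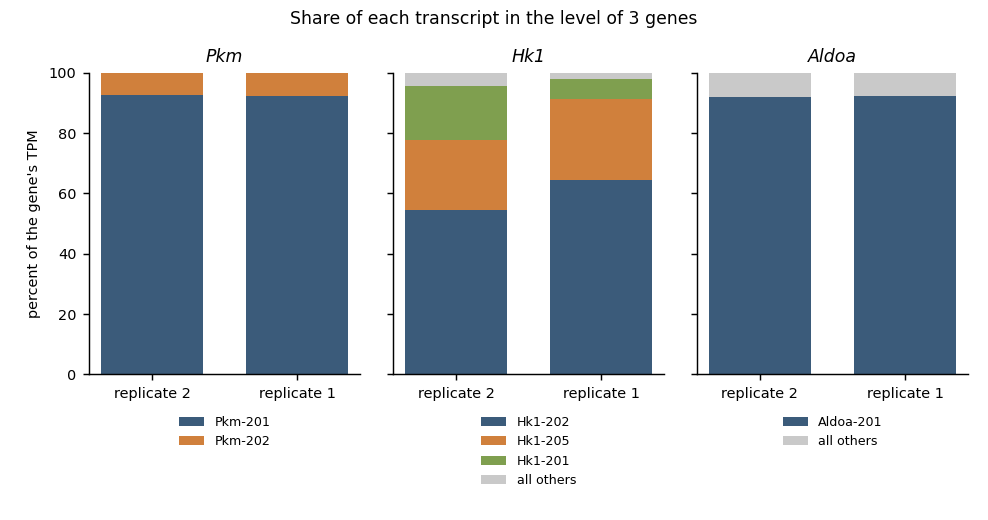
Share of each transcript in the TPM of Pkm, Hk1 and Aldoa, with replicate 2 left of replicate 1 in each panel; named transcripts hold 5% or more in either library and the rest are pooled in grey. The bars of Pkm and Aldoa are nearly the same in both libraries, and in Hk1 the Hk1-201 segment is 17.8% in replicate 2 and 6.55% in replicate 1.

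Lactate dehydrogenase was almost all Ldha. Ldha, the muscle-type subunit, was at 231 TPM in replicate 2, against 169 TPM in replicate 1, a ratio of 1.40 (1.37 to 1.42). Ldhb, the heart-type subunit, was listed at 0.03 TPM in replicate 2, from 3 counts, and at 0 TPM in replicate 1, with 0 counts. The depth limits what these low values say: in replicate 1, 3 counts of Ldhb would be 0.0342 TPM, and the deposited upper credibility bound was 0.0820 TPM.

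The pyruvate dehydrogenase step read differently at the enzyme and at its kinases. Pdha1 and Pdhb, the subunits of the first enzyme of the complex, were within 1.5-fold, with Pdha1 at 28.4 TPM in replicate 2, against 24.2 TPM in replicate 1 and Pdhb at 23.4 TPM in replicate 2, against 25.0 TPM in replicate 1. Their ratios were 1.17 (1.13 to 1.20) and 0.95 (0.91 to 0.99). Pdk1, a kinase that inactivates the complex, was at 15.8 TPM in replicate 2, against 5.65 TPM in replicate 1, from 4287 and 1488 expected counts. Its ratio of 2.69 (2.54 to 2.86) ranked 42 among the 9851 genes. Pdk3, another of the kinases, was at 6.10 TPM in replicate 2, against 6.49 TPM in replicate 1, a log2 ratio of -0.04 (-0.14 to 0.07). Which kinase led depended on the measure: in gene TPM Pdk1 held 72.1% of the kinase sum in replicate 2, and Pdk3 held 53.5% in replicate 1. By expected counts Pdk1 was ahead of Pdk3 in both libraries, with 1431 for Pdk3 in replicate 2 and 1371 in replicate 1. By the TPM of the main protein-coding transcript Pdk3 was ahead in both, with Pdk3-201 at 6.07 TPM in replicate 2, against 6.32 TPM in replicate 1. Pdk2 was listed at 0 TPM with 0 counts in both libraries, where 3 counts would be 0.0322 TPM in replicate 2, against 0.0349 TPM in replicate 1. Its deposited upper bounds were 0.164 and 0.175 TPM in replicates 2 and 1. Pdk4 was listed at 0 TPM with 1 count in replicate 2 and 0 in replicate 1.

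Much of the Pdk1 TPM sat on transcripts not annotated as protein-coding. They held 71.3% of it in replicate 2 and 72.2% in replicate 1, but 35.9% and 41.5% of its counts. Pdk1-201, the one protein-coding transcript at 5% or more, was at 4.53 TPM in replicate 2, against 1.57 TPM in replicate 1. Pdk1-202, of 327 bases, was at 5.78 TPM in replicate 2, against 1.43 TPM in replicate 1, from 113 and 27 counts. With protein-coding transcripts only, the log2 ratio of Pdk1 was 1.56, against 1.43 with all its transcripts.

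The pentose phosphate genes of the set were close between the libraries. None of the 4 reached 1.5-fold in either direction, as was so for 9115 of the 9851 genes compared. Their median log2 ratio was -0.07, with Tkt at 0.04 in scaled counts and -0.05 in FPKM. G6pdx, which makes the first NADPH of the pathway, was at 9.09 TPM in replicate 2, against 10.2 TPM in replicate 1, a log2 ratio of -0.21 (-0.29 to -0.12). Pgd, which makes the second, was at 12.3 TPM in replicate 2, against 12.7 TPM in replicate 1. Tkt and Taldo1, of the non-oxidative branch that links pentoses back to glycolysis, were higher in level. Tkt was at 79.3 TPM in replicate 2, against 79.1 TPM in replicate 1, and Taldo1 at 41.5 TPM in replicate 2, against 45.9 TPM in replicate 1, a log2 ratio of -0.13 (-0.18 to -0.07). The transketolase level thus stood above both dehydrogenases of the oxidative branch in each library. G6pdx shares 418 exon bases with the opposite-strand gene Ikbkg, at 10.9 TPM in replicate 2, against 9.94 TPM in replicate 1.

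Summed by step along the route to lactate, the level was lowest at entry and highest in the triose part of the route. Glucose carriers summed to 19.0 ± 5.90 TPM (SD, n = 2), hexokinases to 38.9 ± 5.82 TPM, phosphofructokinases to 129 ± 49.3 TPM, aldolases to 430 ± 202 TPM, and enolases to 358 ± 112 TPM. The ratio of summed TPM, replicate 2 over replicate 1, was 1.99 at aldolase, 1.80 at pyruvate dehydrogenase kinase, 1.78 at triose phosphate isomerase and 1.74 at phosphofructokinase. It was 1.24 at hexokinase and at phosphoglycerate mutase, 1.05 at pyruvate dehydrogenase, 1.00 at transketolase and 0.89 at glucose-6-phosphate dehydrogenase. The ratio therefore differed from step to step.

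**Figure D4:**
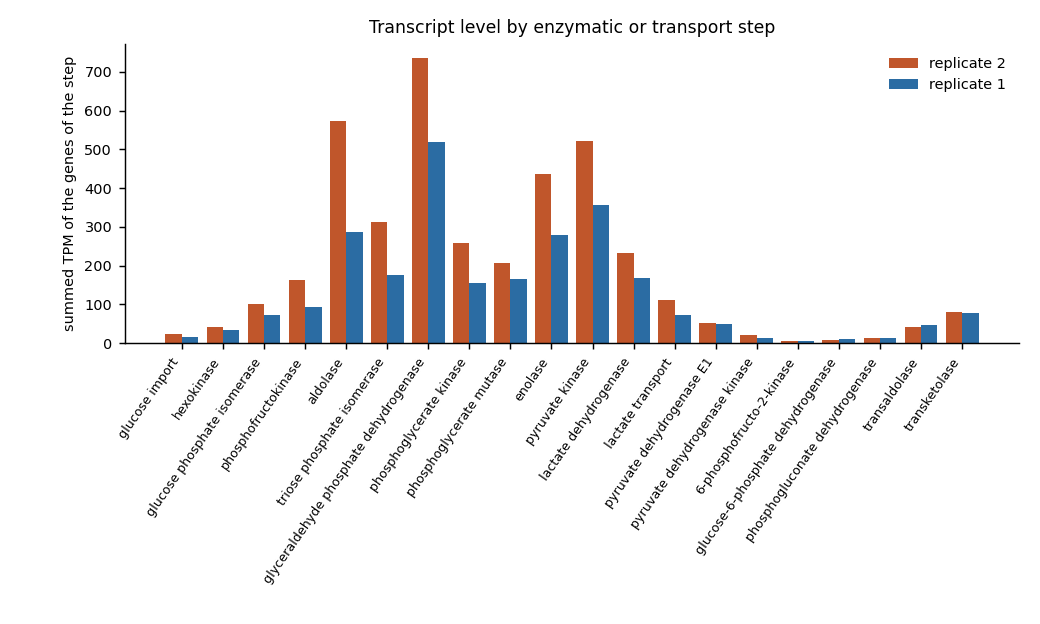
Summed TPM of the genes of each step, replicate 2 left of replicate 1, from glucose import to transketolase. Aldolase stands at 573 TPM in replicate 2, against 287 TPM in replicate 1, and the transketolase bars are level at 79.3 and 79.1 TPM.

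The neighbouring pathways were read from 9 further lists with 106 genes. Of the 65 that averaged 1 TPM or more, 6 were higher in replicate 2 by 1.5-fold or more and 1 was lower, against 5.09% and 2.39% of all genes. Their median log2 ratio was 0.01, against -0.03 over all genes. The tricarboxylic acid cycle, which burns the acetyl groups that pyruvate dehydrogenase makes, had 17 of 17 genes detected, 0 past 1.5-fold and a median of -0.01. Its most abundant genes were Sdhd at 49.4 TPM in replicate 2, against 60.6 TPM in replicate 1, Idh3g at 52.3 and 46.2 TPM, and Sdhb at 44.9 and 44.3 TPM. The shuttles that carry NADH electrons into mitochondria had 6 of 8 genes detected and 0 past 1.5-fold, with Got2 at 71.6 TPM in replicate 2, against 72.3 TPM in replicate 1. The rest of the pyruvate dehydrogenase complex and the pyruvate carriers had 8 of 9 genes detected and 0 past 1.5-fold, with Pdhx at 20.8 TPM in replicate 2, against 17.1 TPM in replicate 1. Of all 9851 genes compared, 9115 were within 1.5-fold, so a count of 0 in lists this short was near the share of all genes. The detected counts stand beside 41.4% of protein-coding genes.

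Genes of these lists past 1.5-fold stood in 5 of the 9 lists. Pck2, the mitochondrial phosphoenolpyruvate carboxykinase, was at 47.6 TPM in replicate 2, against 17.1 TPM in replicate 1, a log2 ratio of 1.51 (1.47 to 1.55). In glycogen metabolism Pgm1, a phosphoglucomutase, was at 23.4 TPM in replicate 2, against 11.8 TPM in replicate 1. Gys1, the glycogen synthase of muscle, was at 6.48 TPM in replicate 2, against 3.18 TPM in replicate 1. Among the regulators only Egln1, a prolyl hydroxylase that marks hypoxia-inducible factors for decay when oxygen is present, passed, at 8.50 TPM in replicate 2, against 4.76 TPM in replicate 1. Myc, a transcription factor that drives many glycolytic genes, was at 14.7 TPM in replicate 2, against 15.5 TPM in replicate 1, a log2 ratio of -0.07 (-0.13 to 0.00). Slc2a8, a further glucose carrier, was at 1.34 TPM in replicate 2, against 0.93 TPM in replicate 1. It passed in scaled counts, with a log2 ratio of 0.80 (0.52 to 1.07) from 316 and 170 expected counts, but its credibility bounds overlapped. Of 8 other pentose phosphate genes compared, only Rbks, the ribokinase, passed. It was at 0.87 TPM in replicate 2, against 1.33 TPM in replicate 1, a log2 ratio of -0.59 (-0.998 to -0.19). The median log2 ratio of these 8 genes was -0.29, with 6 below 0 and 2 above, against 5283 and 4568 of the 9851 genes compared. Their credibility bounds lay apart for 5 with replicate 2 lower and 1 with replicate 2 higher, against 29.6% and 19.0% of all genes. Of 16 isozyme genes known from single tissues such as liver, testis and red cells, 1 was detected, Bpgm at 3.38 TPM in replicate 2, against 3.80 TPM in replicate 1.

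**Figure D5:**
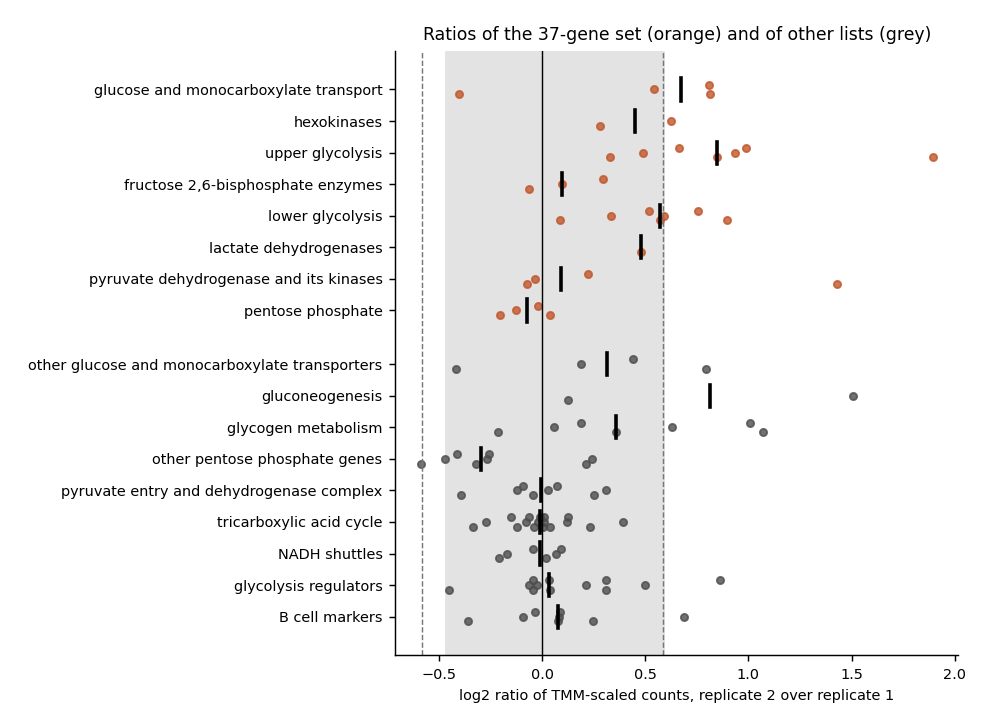
Log2 ratio of TMM-scaled counts, replicate 2 over replicate 1, for each gene that averaged 1 TPM or more, by role within the 37-gene set and by neighbouring list; black bars are medians, dashed lines 1.5-fold and the grey band the 5th to 95th percentile of all genes. Upper glycolysis has its median at 0.85, the pentose phosphate genes at -0.07 and the tricarboxylic acid cycle at -0.01.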

How the data were processed

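Total RNA of CH12.LX was quantified in 2 libraries. The deposited tables, on mm10, give expected counts, TPM, FPKM, posterior mean TPM and, per the file headers, the percent that each transcript makes of its gene; aligner and quantifier: not given in the sources used here. Credibility bounds are other values that the authors deposited, their level not stated. The M4 annotation was the main one. Rows without a gene identifier (26345, at most 5.68e-05% of counts) were left out. GENCODE M21 gave symbols, biotypes and coordinates.

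The 37 genes, the other lists and the rules for genes named were chosen with earlier results of these data known. Named are all 37 genes, the leading genes of other lists and those past 1.5-fold. Transcripts of Hk2, Eno2 and Pdk1, and transcript shares of Pfkfb1, Pfkfb2 and Pfkfb3, were picked after their values were seen. Expected counts were rounded and scaled (TMM, edgeR 4.0.16, R 4.3.3) over genes with at least 10 summed counts. Ratios have exact Clopper-Pearson intervals. A check on simulated counts drew counting error only, as the intervals assume. It does not test the intervals against the spread between these libraries. Nothing in the labels says how the cultures were kept apart, so the spread between libraries may be technical. Alternatives were other annotations, units, filters, pseudocounts (0.1) and DESeq2 1.42.0 size factors. Copies were searched with blastn 2.17.0 at 95% identity over 300 bases or more.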

Additional observations from a re-analysis of the deposited data

How the results depend on the processing

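The 12 genes at 1.5-fold or more numbered 9 to 12 under every other scaling, unit, annotation and filter tried, and 2 at a 2-fold line. The median log2 ratio, 0.48, ran from 0.40 to 0.55: 0.40 with library totals and no TMM factor, 0.45 with TPM, 0.44 with posterior mean TPM, 0.40 with FPKM and 0.55 at a mean of 10 TPM or more. Library totals move the median of all genes to -0.11. The median level of 14.04 TPM was 30.6 in FPKM and 57.8 on TPM rescaled to protein-coding genes, since these scales have other totals; it was 12.7 to 15.8 TPM with either library alone. With either library alone 32 to 33 genes were detected, and 26 to 33 under other thresholds and annotations. Single genes had 191 values under 6 alternatives: DESeq2 size factors, TPM, annotations M2 and M3, matching genes added, and protein-coding transcripts only. Matching genes were those found by the sequence search, either near-identical copies or genes with overlapping exons. Of the 191 values, 2 changed sign: Pfkfb3 to -0.15 in TPM and Pgd to 0.01 with protein-coding transcripts only, both within 1.5-fold. The 1.5-fold line was crossed by 4 values. They were Pfkp with all counts of the overlapping gene Pitrm1 added and Gapdh with its copies added. The other crossings were Eno1 with DESeq2 size factors and with protein-coding transcripts only. Adding matching genes and keeping coding transcripts were chosen after seeing the data. Further scalings put more log2 ratios under the line: Hk1 (0.54), Pfkp (0.58) and Eno1 (0.51) with library totals, Hk1 (0.55) and Eno2 (0.54) in posterior mean TPM, and Hk1 (0.58) and Eno2 (0.55) in FPKM. No paired analysis was possible because there is 1 group. Genes under 0.1 TPM rest on at most 4 counts a library.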

Other observations

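Several of the abundant glycolytic genes have near-identical copies, to which reads cannot be assigned with certainty. For Gapdh, 77 other genes matched at 95% identity or more over at least 300 bases, 74 of them pseudogenes, and those in the tables summed to 200 TPM in replicate 2, against 77.2 TPM in replicate 1. Most of that was Gm10359, at 162 TPM in replicate 2, against 41.7 TPM in replicate 1. With the counts of its copies added, the ratio of Gapdh was 1.55, past the 1.5-fold line. Pgam1-ps2 was at 46.1 TPM in replicate 2, against 29.0 TPM in replicate 1, Pgk1-rs7 at 28.5 and 11.5 TPM, and Gm4735, a copy of Eno1, at 21.4 and 11.04 TPM. Aldoa, Aldoc, Pdk1, Pfkl and the transporters had no such match. Whether reads of the copies came from their parent genes was not tested.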
